A study of Homo sapiens with 6 samples.

Results

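PML nuclear bodies are small round structures of the cell nucleus, and the genes of 9 proteins that build them, live in them or pass through them were examined in HT29 cells, an established human line of colorectal adenocarcinoma with epithelial morphology. The members were taken by gene symbol: PML, SP100, SP110, SP140L, DAXX, ATRX, SUMO2, SUMO3 and ISG20. All 9 were among the 28278 genes listed, and all 9 were among the 15307 genes that passed the filter on low counts. In RNA-Seq, 3 libraries of cells transfected with an siRNA against ALDOA (siALDOA) were set against 3 libraries of cells given a scrambled siRNA (siControl), both harvested 48 h later. ALDOA is aldolase A, a glycolytic enzyme, and the study asked which genes respond when it is depleted. The labels name siALDOA and 1 cell line, without saying whether siALDOA was 1 siRNA or a pool. Effects of siALDOA on other transcripts and effects of losing ALDOA cannot be told apart. The labels call the libraries biological replicates without saying whether they came from separate cultures.

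PML is the scaffold of these bodies. It is modified by SUMO, a small ubiquitin-like protein, and other proteins are drawn in through short motifs that bind SUMO. SP100 is the other classical resident, and SP110 and SP140L belong to its family, whose genes lie together on chromosome 2. DAXX and ATRX form a chaperone that places the histone variant H3.3 into heterochromatin. ISG20 is an RNA exonuclease that has been found in the bodies. PML, SP100, SP110 and ISG20 are textbook targets of interferon, while DAXX, ATRX and the SUMO genes are expressed widely without it.

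The libraries held 27277538 to 33237914 counts. ALDOA itself was at 283, 305 and 280 CPM (each gene's counts relative to all counts of its library, scaled by edgeR's TMM factors) in siALDOA replicates 1 to 3 and at 592, 637 and 668 CPM in siControl, a log2 fold change of -1.13 (SE 0.060, adjusted p = 6.95e-11 by edgeR's quasi-likelihood test). Ribosomal RNA genes took 13.1%, 7.71% and 8.11% of the counts in siALDOA and 17.4%, 15.3% and 8.15% in siControl. Of 9 intestinal epithelial markers, 8 were tested and LGALS4 was listed at 0 in every library. Their summed level was 8379 to 8613 CPM in siALDOA and 9188 to 9653 CPM in siControl, and KRT18 alone passed the test, lower with siALDOA. Of 7 blood cell markers, CD14 alone was frequent enough to be tested and was higher with siALDOA, and 2 were at 0 throughout. The summed level of the blood markers was 16.5 to 18.1 CPM in siALDOA and 12.8 to 14.5 CPM in siControl. The 6 fibroblast markers summed to 3.16 to 4.33 CPM and 3.05 to 4.46 CPM, and none passed the test.

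With siALDOA, the scaffold gene PML and SP100, SP110 and SP140L rose, and the chaperone and SUMO genes did not pass the test. Of the 9 members, 4 were higher and 0 were lower at an adjusted p under 0.05 by edgeR, where 4.36% of all tested genes were higher and 5.29% were lower. Scaling by library totals only turned the balance of all genes from 668 higher and 810 lower to 896 higher and 279 lower, and 5 members were then higher and 0 lower. At the unadjusted P < 0.01 that the study used, 5 of 9 were higher, ISG20 being the added gene, against 5.72% of all tested genes. The levels of both groups did not overlap for 6 of 9 members, 5 of them higher and SUMO3 lower with siALDOA, while 27.7% of all tested genes did not overlap in either direction. At an unadjusted p under 0.05, 0 members were lower, and the share of all tested genes at that cut was not counted. By limma-voom and DESeq2, 0 members were lower as well, against 782 and 925 of all 15307 tested genes. The median log2 fold change of the members was 0.33, and that of all tested genes was 0.0016.

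**Figure D1:**
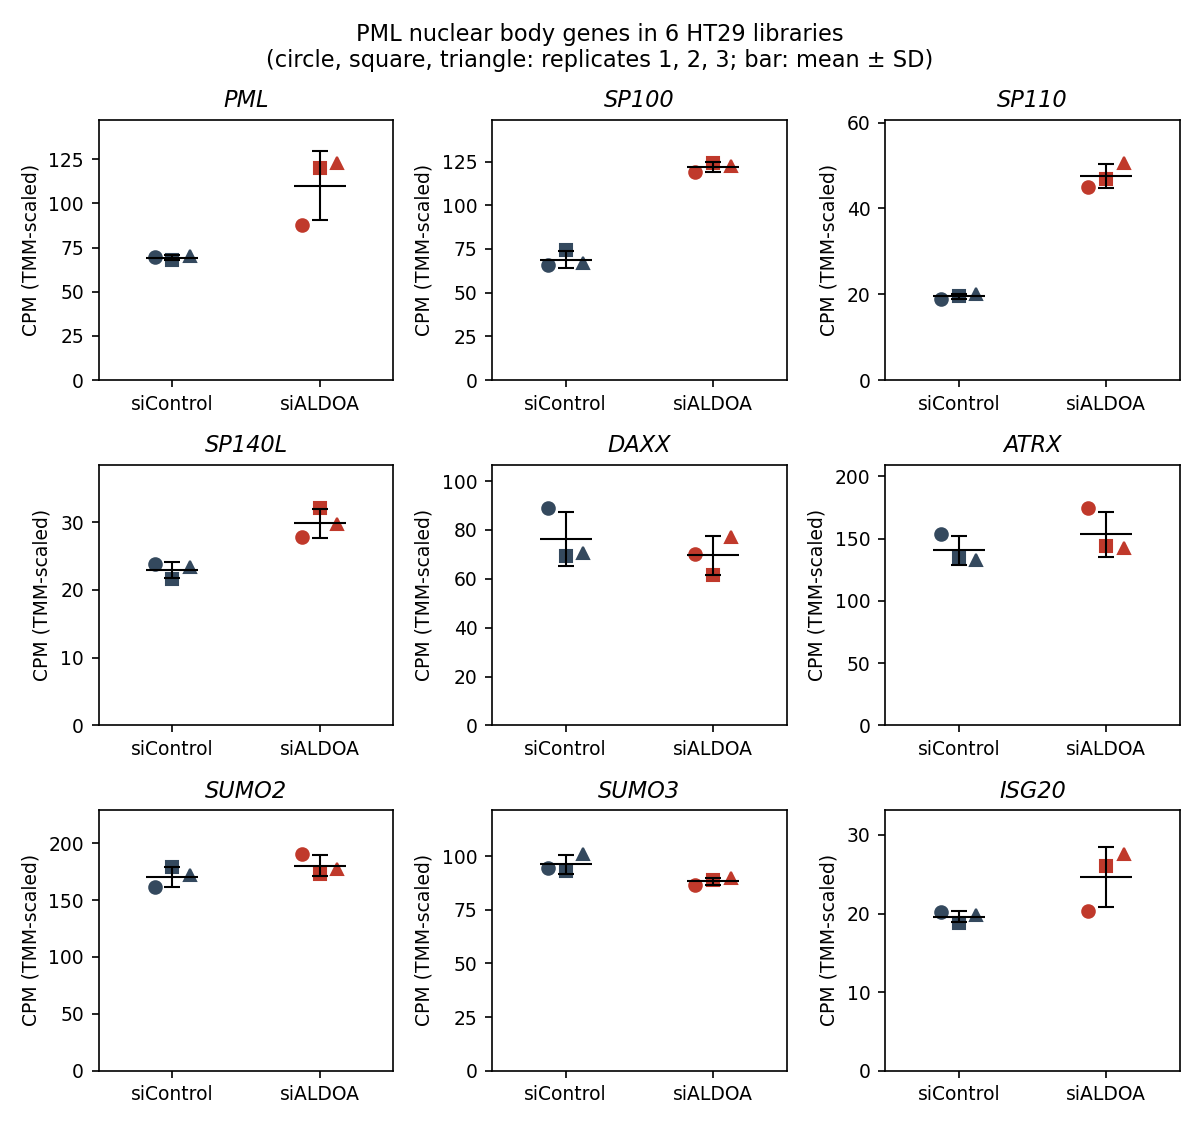
Level of each of the 9 genes in every library, in CPM scaled by TMM factors on an axis from 0, with siControl in grey-blue and siALDOA in red. Circles, squares and triangles are replicates 1, 2 and 3, and bars give the mean ± SD of 3 libraries. SP100 and SP110 lie far apart between the groups, ISG20 of siALDOA replicate 1 touches the siControl values, and DAXX, ATRX and SUMO2 overlap.

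PML, the scaffold (ENSG00000140464, hg38 chr15:73994673-74047827, plus strand), was at 87.5, 119.8 and 122.8 CPM in the siALDOA libraries and at 69.5, 67.8 and 70.4 CPM in the siControl libraries. Every siALDOA library was above every siControl library, but siALDOA replicate 1 stood well below the other two. The coefficient of variation was 17.8% among siALDOA libraries and 1.96% among siControl libraries. The means were 110 ± 19.6 and 69.2 ± 1.36 CPM (SD, n = 3 each), a rise of 1.59-fold with a 95% interval of 1.39 to 1.81. On the log2 scale this was 0.67 (SE 0.091), with an adjusted p of 4.48e-05 by edgeR. Without siALDOA replicate 1 the log2 fold change was 0.81. None of the 50-base words of its longest coding transcript occurs in a transcript of another gene, but its exons overlap those of ENSG00000287543 on the other strand over 4.62% of their length, and the strand setting of the counting is not given in the sources used here.

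SP100, SP110 and SP140L rose, while SP140 of the same family did not pass the test. SP100, which binds heterochromatin protein 1 (ENSG00000067066, chr2:230415942-230545606, plus strand) was at 119.1, 124.2 and 122.6 CPM with siALDOA and at 65.6, 74.3 and 67.0 CPM with siControl. The siALDOA libraries were close to each other, with a coefficient of variation of 2.15%, and the lowest of them was 1.60 times the highest siControl library. Its mean rose from 68.9 ± 4.67 to 122 ± 2.62 CPM (SD, n = 3 each), or 1.77-fold (log2 0.82, SE 0.063, adjusted p = 1.31e-08 by edgeR).

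SP110, a chromatin reader of the same family that is known for its part in immunity to intracellular bacteria (ENSG00000135899, chr2:230165186-230225729, minus strand), changed most among the members. Its levels were 45.1, 46.95 and 50.6 CPM with siALDOA and 18.9, 19.6 and 19.9 CPM with siControl. The lowest siALDOA library was 2.26 times the highest siControl library, the widest separation of the 9 genes. The mean rose from 19.5 ± 0.515 to 47.5 ± 2.79 CPM (SD, n = 3 each), or 2.44-fold with a 95% interval of 2.18 to 2.73. The log2 fold change was 1.29 (SE 0.078, adjusted p = 4.36e-10 by edgeR). Its exons overlap those of ENSG00000225963 on the other strand over 17.8% of their length, and since the strand setting is unknown here, reads of that stretch cannot be assigned to one of them.

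SP140L (ENSG00000185404, chr2:230327184-230403732, plus strand), a less studied relative, moved less. It was at 27.8, 32.0 and 29.7 CPM with siALDOA and at 23.8, 21.6 and 23.4 CPM with siControl. The groups did not overlap, and the lowest siALDOA value was 1.17 times the highest siControl value. The rise was 1.30-fold (log2 0.38, SE 0.085, 95% interval 0.20 to 0.56, adjusted p = 0.00633 by edgeR). Of the 50-base words of its longest coding transcript, 13.2% also occur in SP140, the fourth member of the family. The siALDOA libraries held 40, 22 and 23 counts of SP140 against 13, 11 and 18 in siControl, few beside the 660 to 963 counts of SP140L. The log2 fold change of SP140 was 1.15 (SE 0.44, adjusted p = 0.104 by edgeR), which did not pass the test, although the groups did not overlap. The exons of SP140 overlap those of SP110 on the other strand over 3.05% of their length. With the strand setting unknown, reads of that stretch cannot be assigned to one of them.

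SP110 and SP140L were also compared as a ratio of counts inside each library, which does not depend on how libraries are scaled. In raw counts, SP110 had 1.62, 1.47 and 1.70 times the counts of SP140L in siALDOA libraries and 0.794, 0.905 and 0.852 times in siControl libraries. The groups did not overlap. Per kilobase of merged exons SP110 stayed below SP140L in all 6 libraries, at 4.22, 4.39 and 4.73 against 4.92, 5.67 and 5.25 CPM per kb with siALDOA and at 1.77, 1.83 and 1.87 against 4.22, 3.83 and 4.14 with siControl. The difference of the log2 ratios was 0.91, with p = 0.1 in a two-sided exact permutation test, the smallest p that 3 against 3 libraries allow (0.167 after Benjamini-Hochberg adjustment over 5 ratios). The log2 ratio of SP100 to PML was 0.16 ± 0.24 with siALDOA and -0.0079 ± 0.12 with siControl (SD, n = 3 each), a difference of 0.17 with overlapping groups (exact permutation p = 0.5, adjusted 0.5). The highest ratio, 1.36, was that of siALDOA replicate 1, in which PML was low, and without this library the difference was 0.032.

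**Figure D2:**
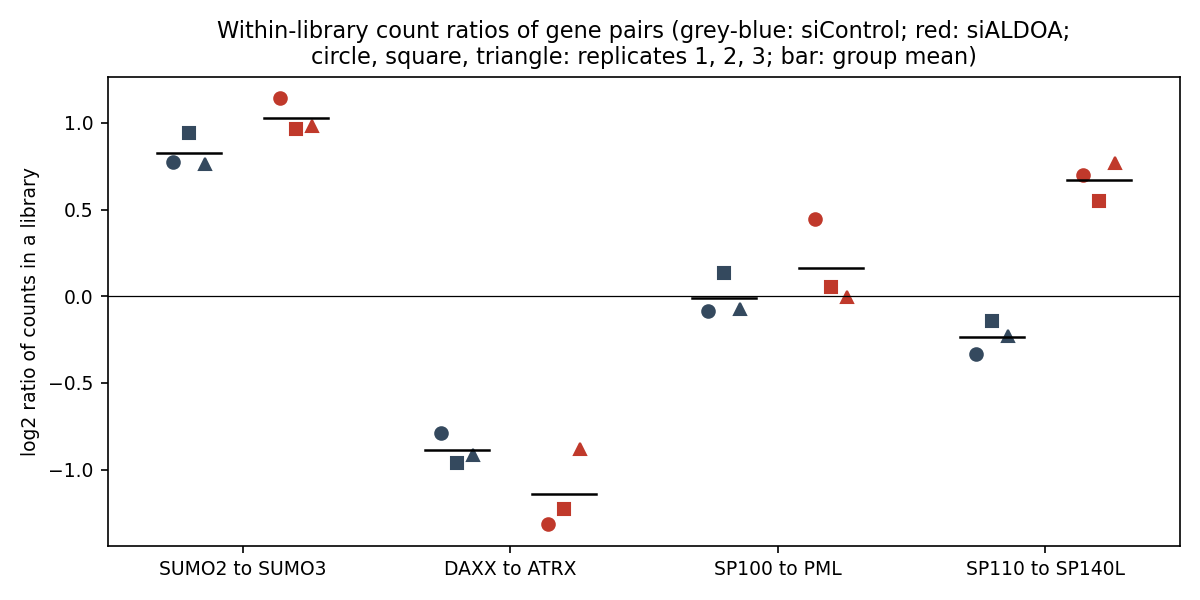
Log2 ratio of the counts of 2 genes within each library for 4 pairs, with siControl in grey-blue, siALDOA in red, marker shapes for replicates 1, 2 and 3 and a bar at the group mean. The ratio of SP110 to SP140L lies below 0 in every siControl library and above 0 in every siALDOA library, and the ratios of DAXX to ATRX and of SP100 to PML overlap between the groups.

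The starts of the family's genes were read from RefSeq windows of GRCh38.p14 that run from 250 bases before to 50 bases after a start, which were given for 6 of the 9 members in 8 windows. They are shown because 3 of the 4 members that rose lie in this stretch of chromosome 2. All 250 bases before the start lie in annotated exons in the first window of SP100 (exons of SP100) and in that of SP110 (exons of SP110 and SP140). The first window of SP100 and that of SP140L were identical at 250 of 279 aligned bases (89.6%). The windows of SP110 were not alike to this degree, with 60.0% and 60.2% identity to the first window of SP100 over 245 and 269 aligned bases, and 58.6% and 56.6% to that of SP140L over 290 and 205. The first window of SP110 and that of SP140 overlap on opposite strands over 199 bases (chr2:230225587-230225785). The longest runs of letters present, on either strand, in the first window of SP100, the window of SP140L and both windows of SP110 were 8 bases long. There were 2 such runs, TTTCACTT, which is in 1.62% of all 35116 windows, and AGGAGGAG, which is in 6.79%. Both runs are also in the window of SP140, whose log2 fold change of 1.15 rested on few counts and did not pass the test. Neither is in the second window of SP100, which was not among those compared. The 30 bases around TTTCACTT are given 5′ to 3′ with the shared run in capitals. For SP100 they lie on the plus strand at chr2:230416126-230416155, with the run at -64 to -57 from the start. For SP140L they lie on the plus strand at chr2:230327095-230327124, with the run at -87 to -80. For the first window of SP110 they are written on the plus strand, opposite to the gene, at chr2:230225715-230225744, with the run at -97 to -90. For the second window of SP110 they are on the minus strand, that of the gene, at chr2:230220017-230220046, with the run at -51 to -44.
SP100: aggttaaatacTTTCACTTctcttttcccc
SP140L: taaataaatacTTTCACTTttcttttcccc
SP110, first window: tagttaggcaaTTTCACTTttcttttcctc
SP110, second window: actccgaaaacTTTCACTTttcttttctcg
These runs were found by comparing the windows and are a description of their letters.

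The 8 windows were also searched on both strands for the letters of the elements read by interferon-activated factors. These were 2 copies of GAAA separated by 2 bases, the core of the interferon-stimulated response element, and TTCNNNGAA, the gamma-activated site bound by STAT dimers. The former is in 3.57% and the latter in 7.66% of all 35116 windows of this length. Matches were found for 2 members. The second window of SP110 holds TTCTCGGAA at -38 to -30. ISG20 holds the paired GAAA at -69 to -60, given here in capitals within plus-strand bases chr15:88638937-88638966.
ISG20: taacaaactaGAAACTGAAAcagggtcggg
The windows of SP100, SP140L, SUMO2 and SUMO3 held neither motif in these letters.

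ISG20, an exonuclease of the DEDD family that degrades single-stranded RNA (ENSG00000172183, chr15:88635670-88656483, plus strand), lay at the border of the test. It was at 20.3, 26.0 and 27.6 CPM with siALDOA and at 20.2, 18.8 and 19.8 CPM with siControl. Replicates 2 and 3 of siALDOA were above all siControl libraries, while replicate 1 was above the highest of them by only 0.0937 CPM. The means were 24.6 ± 3.85 and 19.6 ± 0.743 CPM (SD, n = 3 each), a ratio of 1.26 with a 95% interval of 1.08 to 1.46. The log2 fold change was 0.33 (SE 0.10), and the adjusted p of 0.0508 by edgeR missed the threshold. It passed under 7 of 13 alternative settings, where the adjusted p ranged from 0.00283, without siALDOA replicate 1 (log2 fold change 0.45), to 0.224, without siALDOA replicate 3 (0.24).

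Of 12 other exonucleases of this kind, 1 was higher and 1 was lower at an adjusted p under 0.05, counts too small to set apart from the background of 4.36% and 5.29%. Their median log2 fold change was 0.077. TREX1, which removes DNA from the cytosol, was at 17.0, 21.6 and 19.3 CPM with siALDOA and at 10.9, 14.5 and 15.1 CPM with siControl (log2 fold change 0.52, adjusted p = 0.00922 by edgeR). REXO1 fell from 38.4, 35.0 and 36.0 CPM with siControl to 24.1, 27.4 and 28.1 CPM with siALDOA (log2 fold change -0.46, adjusted p = 8.84e-04 by edgeR). Without siALDOA replicate 2, 0 were higher and 1 was lower.

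siALDOA replicate 1 was the lowest siALDOA library for 6 of the 9 members, namely PML, SP100, SP110, SP140L, ISG20 and SUMO3, and it was not the lowest for DAXX, ATRX or SUMO2. The same library had the highest share of ribosomal RNA in its group, 13.1% of counts. Whether this share has a part in these levels was not tested.

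**Figure D3:**
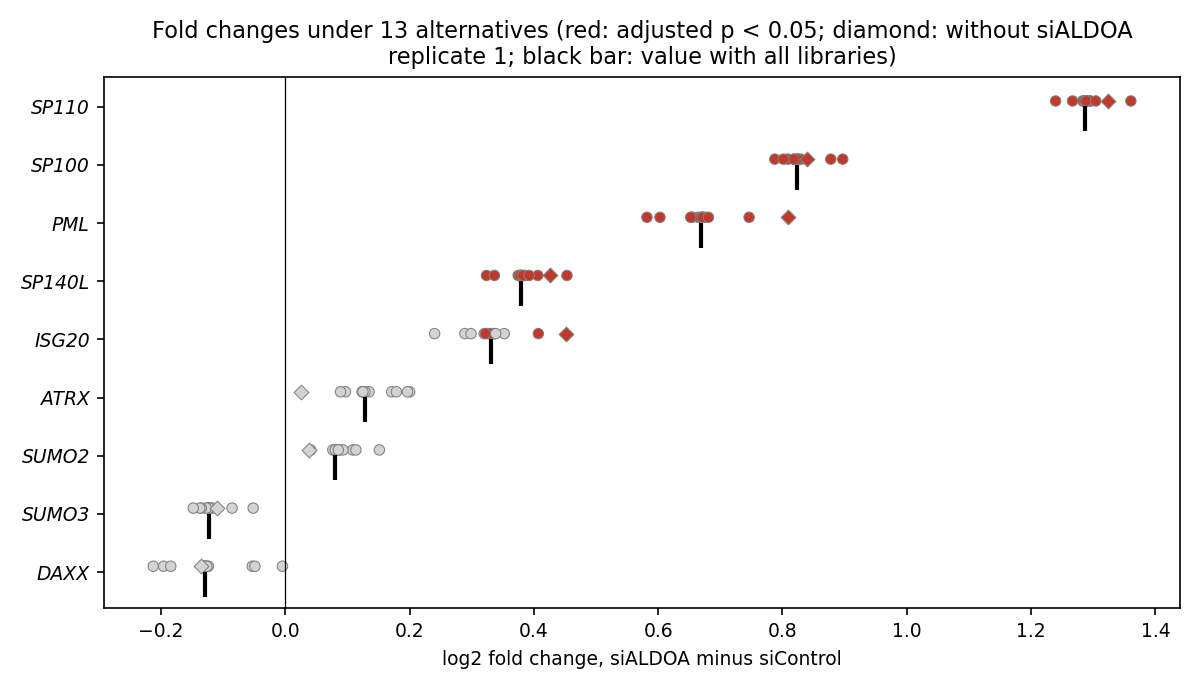
Log2 fold changes (siALDOA minus siControl) of the 9 genes under 13 alternative settings, each a point, red where the adjusted p was under 0.05 and grey otherwise, with diamonds for the fit without siALDOA replicate 1 and black bars for the value with all libraries. SP110, SP100, PML and SP140L stay red throughout, ISG20 is red in 7 of 13, and the other 4 genes are grey throughout.

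The H3.3 chaperone pair did not pass the test. DAXX, the histone-binding subunit (ENSG00000204209, chr6:33318558-33323016, minus strand), was at 70.0, 61.6 and 77.3 CPM with siALDOA and at 88.9, 69.2 and 70.4 CPM with siControl. The groups overlapped, and siControl replicate 1 was above all other libraries. The log2 fold change was -0.13 (SE 0.090, 95% interval -0.32 to 0.058, adjusted p = 0.419 by edgeR), and without siControl replicate 1 it was -0.0046. Of the 50-base words of its longest transcript, 15.3% also occur in the overlapping gene ENSG00000285064, which was not listed in the files.

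ATRX, the chromatin-remodelling subunit (ENSG00000085224, chrX:77504880-77786233, minus strand), was at 174, 144 and 142 CPM with siALDOA and at 154, 135 and 133 CPM with siControl. Replicate 1 was the highest library in both groups, and the groups overlapped. The log2 fold change was 0.13 (SE 0.076, 95% interval -0.030 to 0.29, adjusted p = 0.328 by edgeR), and without siALDOA replicate 1 it was 0.026. Within libraries, DAXX had 0.402, 0.428 and 0.543 times the counts of ATRX with siALDOA and 0.578, 0.514 and 0.530 times with siControl. The log2 ratios differed by -0.25 with overlapping groups (exact permutation p = 0.3, adjusted 0.375, where 0.1 is the smallest p possible). With single libraries left out, this difference ran from -0.16 (without siALDOA replicate 1) to -0.38 (without siALDOA replicate 3).

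Among 18 genes of H3.3 and its heterochromatin, 4 were higher, 1 was lower and 13 did not pass the test, where 4.36% of all tested genes were higher and 5.29% lower. The median log2 fold change of the 18 was 0.076. H3-3A, one of the genes that encode H3.3, rose from 350, 361 and 349 CPM with siControl to 451, 402 and 398 CPM with siALDOA (log2 fold change 0.24, adjusted p = 0.0115 by edgeR). H3-3B, the other gene for the same protein, had a log2 fold change of -0.10 that did not pass (adjusted p = 0.339 by edgeR). HIRA, the chaperone subunit that places H3.3 in active chromatin, was at 0.03 (adjusted p = 0.823 by edgeR). The other risers were SUV39H2, a histone H3 lysine methyltransferase (log2 fold change 0.40), ASF1B, a histone chaperone (0.27), and CBX5, heterochromatin protein 1 alpha (0.23), with adjusted p of 0.0122, 0.0302 and 0.0110 by edgeR. Without siALDOA replicate 3 or without siControl replicate 2, 2 were higher and 1 was lower. Without siControl replicate 3, 0 were higher and 1 was lower, so that H3-3A, SUV39H2, ASF1B and CBX5 all lost their call.

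SUMO2 and SUMO3 encode nearly the same modifier, which forms chains on PML, and neither passed the test. SUMO2 (ENSG00000188612, chr17:75165586-75182959, minus strand) was at 191, 173 and 177 CPM with siALDOA and at 161, 179 and 172 CPM with siControl, and the groups overlapped. Its log2 fold change was 0.080 (SE 0.060, 95% interval -0.045 to 0.21, adjusted p = 0.460 by edgeR), so that a rise of up to 1.15-fold is inside the interval. With single libraries left out, the log2 fold change ran from 0.037 (without siALDOA replicate 1) to 0.114 (without siControl replicate 2). Of the 50-base words of its transcript, 8.44% are shared with transcripts of other genes.

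SUMO3 (ENSG00000184900, chr21:44805617-44818779, minus strand) was at 86.5, 88.7 and 89.6 CPM with siALDOA and at 94.3, 93.0 and 101 CPM with siControl. All siALDOA libraries were under all siControl libraries. The log2 fold change of -0.12 (SE 0.060, 95% interval -0.25 to 0.0021) had an adjusted p of 0.220 by edgeR. The paralogs thus differed in sign, and their ratio was taken within libraries. SUMO2 had 2.21, 1.95 and 1.98 times the counts of SUMO3 with siALDOA and 1.71, 1.92 and 1.70 times with siControl. The groups did not overlap, but replicate 2 of each group stood only 1.95 against 1.92. The difference in log2 ratio was 0.20, with the smallest p that the design allows (exact permutation p = 0.1, adjusted 0.167).

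Across the SUMO pathway, 1 of 23 genes was higher and 2 were lower, near the background of 4.36% and 5.29%, and the log2 fold changes had their median at -0.044. The subunits of the activating enzyme, SAE1 (-0.07, adjusted p = 0.480 by edgeR) and UBA2 (-0.02, adjusted p = 0.846 by edgeR), did not pass. SENP6, a protease that trims SUMO2 and SUMO3 chains, fell by 0.23 on the log2 scale (adjusted p = 0.0324 by edgeR), and the ligase PIAS3 rose by 0.24 (adjusted p = 0.0302 by edgeR). Only 1 gene of the list was called, as lower, when any library other than siALDOA replicate 1 was left out, and with library totals only as the scaling 1 was higher and 0 were lower.

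**Figure D4:**
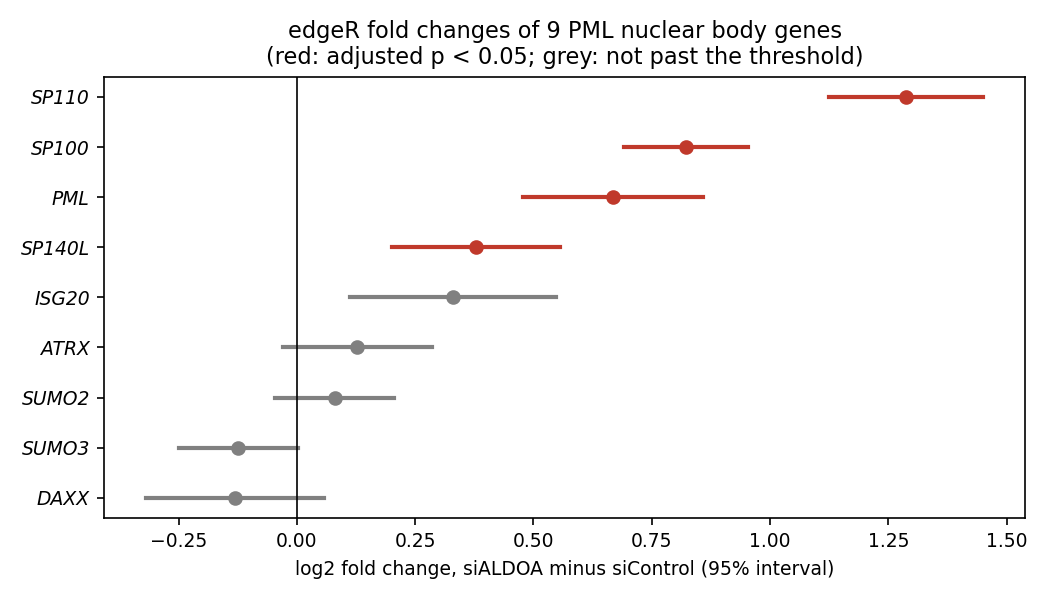
Log2 fold change of each of the 9 genes (siALDOA minus siControl, 3 libraries each) with its 95% interval from edgeR, red where the adjusted p was under 0.05. The intervals of SP110, SP100, PML and SP140L lie above 0, that of ISG20 starts at 0.11, and those of ATRX, SUMO2, SUMO3 and DAXX cross 0.

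Genes of 20 other proteins that visit the bodies were counted. Of these partners, 0 were higher and 4 were lower at an adjusted p under 0.05 by edgeR, with limma-voom and DESeq2 calling 0 higher as well. Over all tested genes 4.36% were higher and 5.29% were lower, so that 0 higher of 20 is near the background. At an unadjusted p under 0.05, 2 were higher, SP140 and CABIN1, and 4 were lower. The share of all tested genes at that cut was not counted. The median log2 fold change of the list was -0.021. HIPK1 and HIPK2, kinases with DAXX and p53 among their known substrates, were the clearest. HIPK1 fell from 111, 93.5 and 98.2 CPM with siControl to 72.0, 63.6 and 63.8 CPM with siALDOA (log2 fold change -0.60, SE 0.072, adjusted p = 8.70e-06 by edgeR). HIPK2 fell from 63.8, 60.5 and 62.9 to 43.0, 46.5 and 46.8 CPM (log2 fold change -0.46, adjusted p = 8.64e-05 by edgeR). The corepressor SKI fell by 0.32 (adjusted p = 0.00125 by edgeR), and the acetyltransferase CREBBP fell by 0.24 (adjusted p = 0.0440 by edgeR), both on the log2 scale. With library totals only as the scaling, 2 partners were lower.

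The genes on either side of the SP100 family on chromosome 2 were counted as well. Of 8 neighbours, 6 were tested, and 0 were higher and 0 were lower at an adjusted p under 0.05 by edgeR, which is near the background of 4.36% and 5.29% and does not set them apart. At an unadjusted p under 0.05 there was 1, ARMC9 (log2 fold change 0.28, adjusted p = 0.0547 by edgeR). The share of all tested genes at that cut was not counted. DESeq2 called 1 neighbour higher, where it called 774 of all 15307 tested genes higher. TRIP12, a ubiquitin ligase, was at 0.01 (adjusted p = 0.912 by edgeR), and CAB39 was at 0.06 (adjusted p = 0.604 by edgeR). The median of the 6 was 0.037.

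Several regulators of interferon signalling rose. Of 10, 5 were higher and 0 were lower at an adjusted p under 0.05 by edgeR, limma-voom and DESeq2. Over all tested genes 4.36% were higher by edgeR at that threshold. At an unadjusted p under 0.05, 1 was lower (JAK1), and the share of all tested genes at that cut was not counted. With single libraries left out, 4 of the 10 were higher in each fit except that without siALDOA replicate 1, where 5 were. The list had a median log2 fold change of 0.18. STAT2, a transcription factor activated by interferon, rose from 46.1, 47.3 and 48.5 CPM with siControl to 72.9, 86.4 and 84.3 CPM with siALDOA (log2 fold change 0.78, adjusted p = 1.63e-07 by edgeR). Its DNA-binding partner IRF9 rose by 0.27 (adjusted p = 0.0253 by edgeR), IRF7 by 0.76 (adjusted p = 4.51e-07 by edgeR) and IRF1 by 0.39 (adjusted p = 0.00196 by edgeR). siALDOA replicate 1 was again the lowest siALDOA library for these 4 genes. The receptor genes IFNAR1 and IFNAR2 and the kinases JAK1 and TYK2 did not pass the test.

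**Figure D5:**
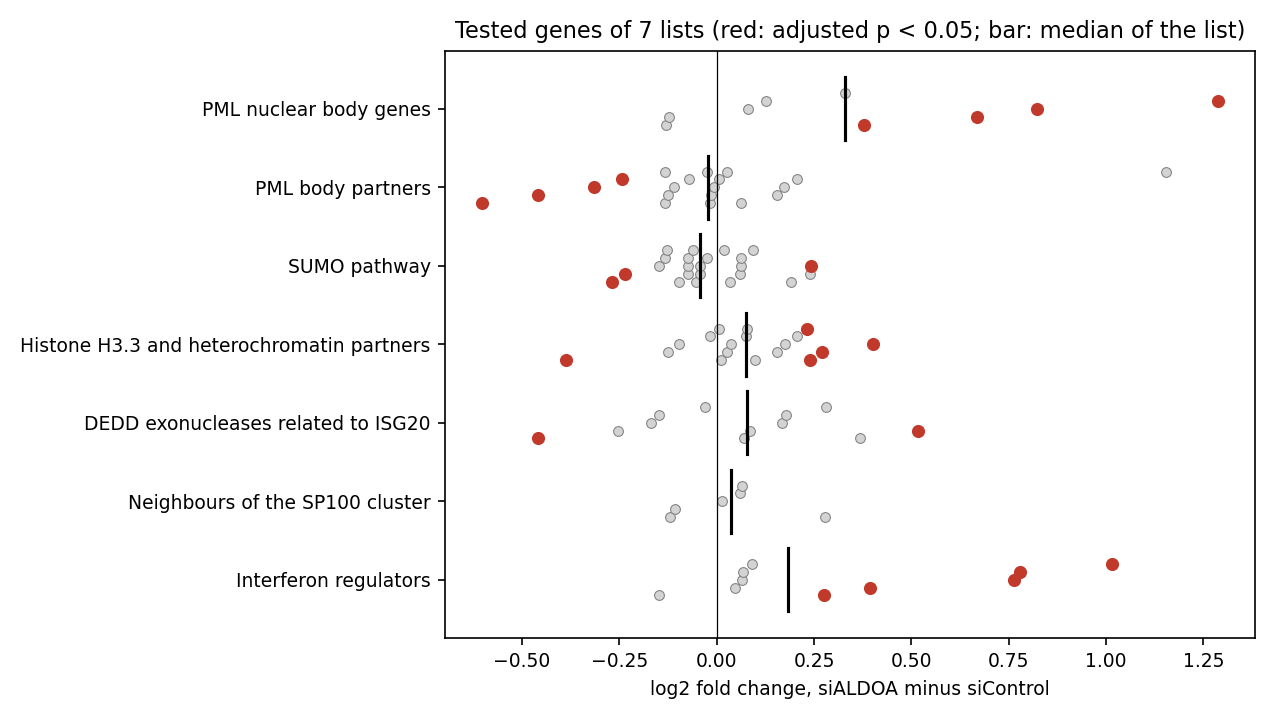
Log2 fold change (siALDOA minus siControl) of every tested gene of 7 lists, red where the adjusted p was under 0.05, with a bar at the median of each list. The 4 red points among PML nuclear body genes and the 5 among interferon regulators lie above 0, and the 4 red points among PML body partners lie below 0.

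The genes whose pattern over the 6 libraries was nearest to a member were taken by the root mean square difference of log2 CPM, each gene centred on its siControl mean, among 10078 genes of at least 10 CPM. For PML they were USP18 (0.070), LGALS9 (0.072), GBP1 (0.079), IRF7 (0.090) and PNPT1 (0.098). For SP100 they were PARP12 (0.050), RNF213-AS1 (0.063), ZCCHC2 (0.074), ANGPTL6 (0.075) and BST2 (0.075). For ATRX, a member that did not pass the test, they were WWC3 (0.019), SYTL2 (0.028), ARHGAP5 (0.032), FGFR1OP (0.032) and LUC7L3 (0.032). These values are distances that describe the same 6 libraries, and a small one can be had by any gene with little change when the member changed little.

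Levels of different genes were compared per kilobase of merged exons, since a longer gene collects more counts. In siControl cells SUMO2 was highest at 51.0 ± 2.64 CPM per kb, followed by SUMO3 at 35.2 ± 1.61 and DAXX at 24.7 ± 3.57 (SD, n = 3 each). ATRX (6.18 ± 0.505), PML (5.46 ± 0.107), SP100 (4.88 ± 0.331) and SP140L (4.06 ± 0.207) came next, then ISG20 (2.73 ± 0.103) and SP110 (1.82 ± 0.048). The ranges of neighbours in this order did not overlap over the 3 siControl libraries. With siALDOA, PML (8.68 ± 1.54) and SP100 (8.63 ± 0.185) stood above ATRX (6.75 ± 0.793) on average, and PML overlapped both. SP110 (4.45 ± 0.261) was above ISG20 (3.43 ± 0.536). All exons annotated to a gene were merged, so a gene with many unused exons appears lower on this scale.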

How the data were processed

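RNA-Seq libraries of HT29 cells (3 siALDOA, 3 siControl) were grouped by their titles. Per the study's methods, reads were aligned to hg38 with tophat2 and counted with gfold, and the submitters' processing notes also name edgeR and limma. The deposited files hold whole-number read counts per gene symbol, without normalization. The annotation, the strand setting and the treatment of multiply mapped reads are not given in the sources used here.

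Counts were tested in R 4.3.3 with edgeR 4.0.16 (filterByExpr, TMM, quasi-likelihood F-test, all 6 libraries, no covariate), with Benjamini-Hochberg adjustment over all tested genes. Each standard error was the fitted log2 difference over the root of its F statistic. The edgeR p-values set the difference of the groups against the spread between these libraries. At 27277538 to 33237914 counts per library each member rests on at least 565 counts in every library. On simulated counts of 15154 genes, 76.1%, 88.1% and 98.5% of simulated log2 differences of 0.5, 1 and 1.5 were recovered, with 13 false among 188 calls. Ratios within libraries were compared with exact permutation tests. Alternatives were limma-voom (limma 3.58.1), DESeq2 1.42.0, library totals only, upper quartile scaling, no filter, a minimum of 10 counts per library, leaving out single libraries in turn and adding the replicate number as a block.

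The members and gene lists were chosen with earlier results of these data known. Named genes were the members, ALDOA, set genes of each list with up to 5 further ones by p, and, for PML, SP100 and ATRX, the 5 most alike in pattern. ARMC9, CABIN1, JAK1, TYK2, IFNAR1 and IFNAR2 were named after their values were seen. A few genes taken by this rule, and 1 of the 5 ratios, are not reported here. Coordinates and exon lengths are from GENCODE release 44 (hg38), promoter windows from RefSeq (GRCh38.p14). Scripts ran in python 3.11.15, and figures were drawn with matplotlib 3.10.9.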

Additional observations from a re-analysis of the deposited data

How the results depend on the processing

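PML, SP100, SP110 and SP140L stayed past the threshold and kept their direction under all 13 alternatives, the largest adjusted p of SP140L being 0.0494, and DAXX, ATRX, SUMO2 and SUMO3 never passed. Of 117 values of the members, 110 kept direction and side of the threshold and 7, all of ISG20, moved past it, so the count of higher members was 4 or 5. Scaling by library totals only shifted the median of all genes to 0.075 and gave 896 higher and 279 lower genes, 2 called PML body partners, 1 SUMO pathway gene and 1 neighbour of the SP100 family. DESeq2 and the replicate block also called 1 such neighbour. With libraries left out in turn, the calls ranged from 359 to 644 higher genes, 471 to 790 lower genes, 1 to 3 SUMO pathway genes, 1 to 5 histone H3.3 and heterochromatin genes, 1 to 3 DEDD exonucleases, 4 to 5 interferon regulators and 0 to 1 neighbours. The lowest counts of all genes came without siControl replicate 2 (359 and 490) and without siControl replicate 3 (363 and 471). Without siControl replicate 1 they were 602 and 696. Each of these fits has fewer libraries, and the cause of the differences between them was not tested. Deviations from the group mean correlated at 0.035, 0.027 and 0.026 between libraries of equal replicate number. Between libraries of unlike number the correlations ran from -0.046 to 0.022, below those of equal number. Whether libraries of equal replicate number were paired was not tested. With the number as a block, 987 genes were higher and 1175 lower, and 5 members were higher, ISG20 with an adjusted p of 0.0218. No p below 0.1 was possible for the ratios within libraries.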
